A study of Mus musculus with 12 samples.

Results

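The 10 integrin subunit genes Itgam, Itgal, Itgax, Itgb2, Itgb1, Itga5, Itga4, Itgav, Itga2b and Itgb7 were followed across a polyadenylated RNA sequencing experiment in the mouse macrophage-like line J774A.1. They were taken by name from the 11762 genes of the expression table, and each of the 10 names had 1 row. J774A.1 is an established line of BALB/c origin, so the libraries describe 1 line and not primary macrophages. Its cells received lipopolysaccharide and microparticles together (LPS+MP), lipopolysaccharide alone (LPS), microparticles alone (MP), or a mock treatment (control), with 3 biological replicates in each of the 4 groups. LPS comes from the envelope of Gram-negative bacteria and is sensed by Toll-like receptor 4. What the particles were made of, their dose and the length of exposure are not stated in the labels, and all groups share the line and the library protocol.

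Integrins are surface receptors made of 1 alpha and 1 beta chain, which leave the endoplasmic reticulum as a pair. They bind matrix proteins or counter-receptors on other cells, and the short tails inside the cell join them to actin through talin and kindlin. In macrophages the beta 2 family carries much of the binding to complement-coated targets and to ICAM-1, while the beta 1 and alpha V integrins bind fibronectin, VCAM-1 and proteins with an RGD motif.

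Values are CPM (read counts scaled to a common library total), read as such although the columns are headed RPKM, and changes are on the scale of log2(CPM + 1) with their standard error (SE). "Rose" and "fell" are used where the adjusted p was under 0.05 and the change over 2-fold (limma, all 12 libraries, Benjamini-Hochberg adjustment over 11745 genes), the thresholds of the series description. All 10 integrin genes passed the filter on low values, which asks for 1 CPM in at least 3 libraries. Column totals lie between 998867 and 999273. Low values were whole multiples of 0.0248 CPM in MP replicate 1 and of 0.0247 CPM in LPS replicate 3; no such step was found for all low values of the remaining libraries, whose depth is unknown, so no counting interval is given. LPS replicate 2 stood apart: 339 genes differed in it by over 1 (log2) from its 2 fellow LPS libraries taken as a mean, against 1 to 29 genes in each of the remaining 11 libraries. Where leaving it out moves a member across adjusted p of 0.05, both values are given. Of 12 macrophage markers 10 were in the table, among them Csf1r, Cd68, Lyz2 and Spi1. The summed level of the 10 was 6569 to 6975 CPM in LPS+MP and 7919 to 9129 in LPS. In MP it was 7350 to 7814 CPM, and in control 7416 to 8215. Within this sum single markers moved in both directions. Lyz2 had 982 ± 92.5 CPM in LPS+MP against 2393 ± 139 in control (SD, n = 3 each). Cd14 had 1339 ± 14.3 CPM in LPS+MP against 477 ± 39.2 in control, and Fcgr1 216 ± 16.8 against 41.9 ± 3.96. Of the T cell, B cell and fibroblast markers 1 each was in the table (Lck, Blnk and Pdgfra), 2 of the neutrophil ones (S100a8 and Camp), 3 of the endothelial ones (Pecam1, Cdh5 and Vwf), and none of the mast cell or epithelial ones. Some of these moved with LPS. Blnk had 142.5 to 150.3 CPM in LPS+MP, 121 to 157 in LPS, 55.9 to 61.2 in MP and 77.5 to 79.7 in control. The neutrophil markers summed to 2.36 to 5.08 CPM in LPS+MP, 4.14 to 6.04 in LPS, 1.36 to 2.14 in MP and 1.30 to 2.67 in control. The endothelial ones summed to 7.43 to 10.7 CPM in LPS+MP and 7.96 to 15.6 in LPS. In MP their sum was 14.6 to 17.2 CPM, and in control 18.8 to 21.5. Vwf was the largest part of that sum, with 17.4 ± 1.29 CPM in control and 6.24 ± 3.11 in LPS. Pecam1 went the other way, with 0.626 ± 0.136 CPM in control and 4.18 ± 0.504 in LPS. Cdh5 had 2.06 ± 0.486 CPM in control and 2.07 ± 0.440 in LPS. The part of these 3 lists in the results on the integrin genes was not tested. In these bulk libraries fewer cells with a transcript and less of it per cell cannot be told apart.

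Itgal and Itga5 rose with LPS, with or without particles. Itgav and Itga2b rose in LPS+MP against control and were under the 2-fold threshold in LPS against control (0.99 and 0.92). In neither gene did LPS+MP differ from LPS at adjusted p under 0.05. The difference was 0.17 ± 0.11 for Itgav (adjusted p = 0.241, limma) and 0.13 ± 0.17 for Itga2b (adjusted p = 0.587). Itgam was the 1 member that fell when particles were added to LPS, to 484 ± 18.3 CPM in LPS+MP against 1087 ± 74.3 CPM in LPS (SD, n = 3 each). With MP alone none of the 10 passed the 2-fold threshold, and 3.67% of all genes did (1.82% higher and 1.85% lower). In LPS against control 2 of 10 rose and 0 fell, where 8.30% of all genes rose and 8.05% fell. In LPS+MP against control 4 of 10 rose and 0 fell (all genes 8.52% and 12.3%, 20.8% in all). In LPS+MP against LPS 0 rose and 1 fell (all genes 0.630% and 3.89%, 4.52% in all), and in LPS+MP against MP 3 rose and 1 fell (all genes 5.71% and 7.88%). In the interaction, the difference between the particle effects with and without LPS, 0 of 10 passed both thresholds (4.70% of all genes, 3.68% lower). Median changes of the 10 genes were 0.70 (log2) in LPS against control, where all genes had -0.08, 0.53 against -0.10 in LPS+MP against control, and -0.19 against -0.05 in LPS+MP against LPS. In MP against control both medians lay at 0.00 and 0.02.

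**Figure D1:**
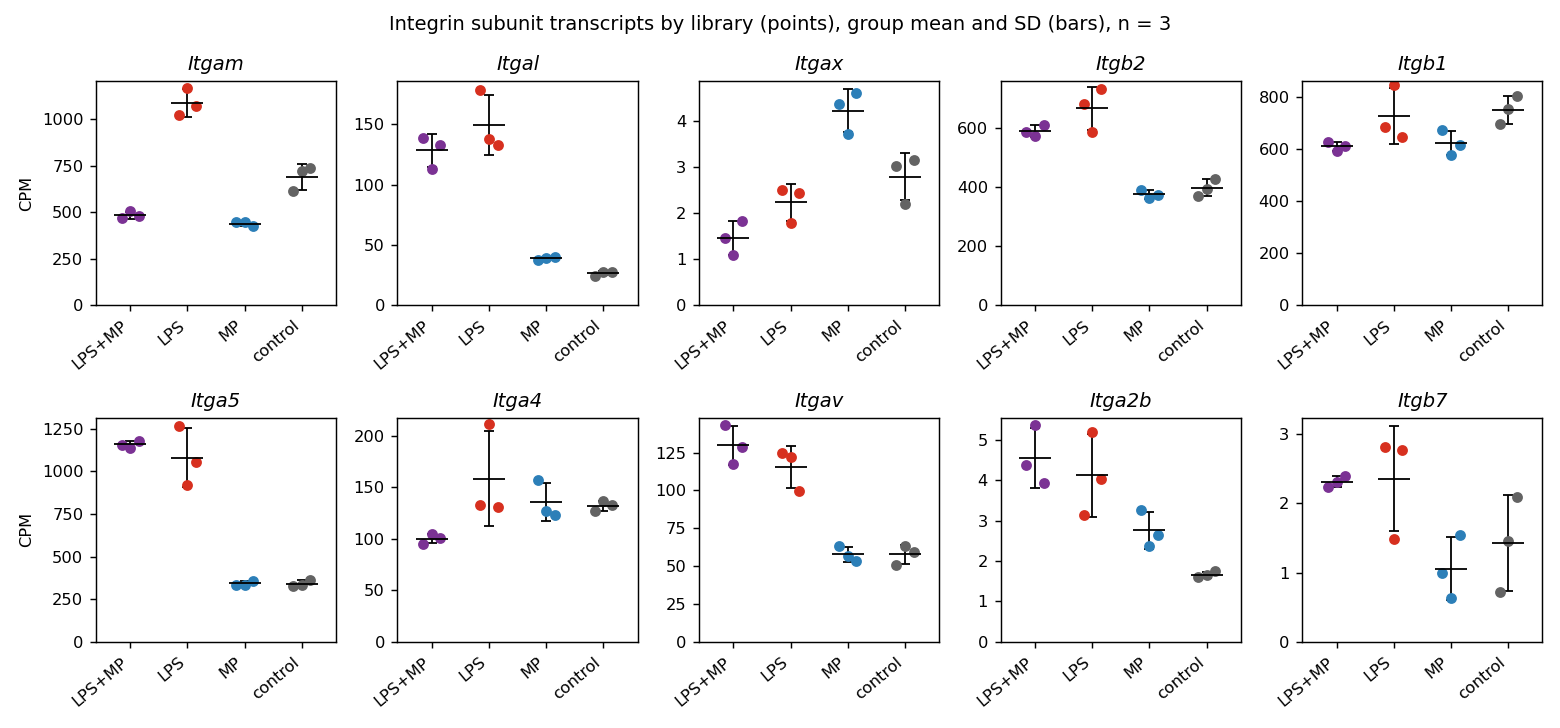
Level of each integrin subunit transcript in CPM (vertical axes from 0, own scale per gene) in LPS+MP, LPS, MP and control libraries. Points are libraries, horizontal bars the group mean and vertical bars the SD (n = 3). Itgal, Itga5 and Itgav stand high in both groups with LPS, and Itgam is high in LPS and between 424 and 505 CPM in both groups with particles.

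Itgam encodes the alpha M chain (CD11b), which pairs with beta 2 to form complement receptor 3 (Mac-1). It had 469.7, 505 and 477 CPM in LPS+MP libraries, 1022, 1168 and 1071 CPM in LPS, 449, 445 and 424 CPM in MP, and 612, 720.2 and 740.4 CPM in control (chromosome 7, 128062640 to 128128160, plus strand, coordinates of the table). Groups with particles lay below control in every library and LPS libraries lay above it, with no overlap between control and any of the other groups. The fall in LPS+MP against LPS was -1.16 ± 0.08 (adjusted p = 3.53e-08, limma), 0.446 times the LPS level, and it stayed past both thresholds in all 14 alternatives. Against control the change was 0.66 ± 0.08 in LPS (adjusted p = 3.75e-06), -0.65 ± 0.08 in MP (adjusted p = 1.72e-05) and -0.51 ± 0.08 in LPS+MP (adjusted p = 4.37e-05), each under the 2-fold threshold. LPS+MP and MP differed by 0.14 ± 0.08 (95% interval -0.03 to 0.31, adjusted p = 0.154). That difference was 0.28 with median-ratio scaling (adjusted p = 0.0101) and 0.013 with quantile normalization (adjusted p = 0.901), and with only the compared groups its adjusted p was 0.0284. The effect of particles on Itgam was itself different with LPS, by -0.52 ± 0.11 (adjusted p = 0.00434 for the interaction).

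Itgal, the alpha L chain (CD11a) of the leukocyte receptor LFA-1, showed the largest change among the 10. It had 139, 113 and 133 CPM in LPS+MP libraries, 178, 138 and 133 CPM in LPS, 37.8, 39.3 and 39.8 CPM in MP, and 24.4, 27.9 and 27.7 CPM in control (chromosome 7, 127296260 to 127335137, plus strand). Every library with LPS was above every library without it, and MP did not overlap control. Itgal rose 5.41-fold in LPS against control (2.43 ± 0.11, adjusted p = 2.72e-11) and 4.67-fold in LPS+MP against control (2.22 ± 0.11, adjusted p = 4.74e-11). LPS+MP also exceeded MP, by 1.69 ± 0.11 (adjusted p = 2.14e-09). MP alone gave 0.53 ± 0.11 over control (adjusted p = 0.00119, 1.45-fold), while LPS+MP and LPS differed by -0.21 ± 0.11 (adjusted p = 0.141), or by -0.26 without LPS replicate 2 (adjusted p = 0.0469). The interaction was -0.74 ± 0.15 (adjusted p = 0.00271). Lck, the T cell marker in the table, had 9.43 to 10.7 CPM in LPS+MP, 9.11 to 11.48 in LPS, 9.62 to 10.1 in MP and 3.57 to 4.09 in control, and its part in the Itgal result was not tested.

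Itgax encodes alpha X (CD11c), the chain that marks many dendritic cells and some tissue macrophages, and its level was low here. Its values were 1.46, 1.10 and 1.83 CPM in LPS+MP, 2.499, 1.77 and 2.42 CPM in LPS, 4.36, 3.71 and 4.59 CPM in MP, and 3.02, 2.20 and 3.15 CPM in control (chromosome 7, 128129547 to 128150656, plus strand). MP libraries were the highest, above all others, and LPS+MP the lowest of the 4 groups, overlapping LPS in 1 library. Itgax fell in LPS+MP against MP (-1.09 ± 0.17, adjusted p = 4.86e-05), a call that ended with quantile normalization (-0.95), with median-ratio scaling (-0.99) and without LPS+MP replicate 2 (-0.98). It was lower in LPS+MP than in control by -0.62 ± 0.17 (adjusted p = 0.00408) and higher in MP than in control by 0.47 ± 0.17 (adjusted p = 0.0377), both under the 2-fold threshold. LPS+MP against LPS gave -0.40 ± 0.17 (adjusted p = 0.0795), or -0.50 without LPS replicate 2 (adjusted p = 0.0224). The difference between MP and control missed adjusted p of 0.05 in 6 of 14 alternatives, with values up to 0.162.

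The common partner of these alpha chains is Itgb2 (CD18). Itgb2 had 588, 574 and 611 CPM in LPS+MP, 683, 589 and 733 CPM in LPS, 392, 363 and 374 CPM in MP, and 372, 396 and 428 CPM in control (chromosome 10, 77530252 to 77565708, plus strand). Libraries with LPS lay above those without it, MP overlapped control, and LPS+MP overlapped LPS only through LPS replicate 2, with the other LPS libraries above all LPS+MP ones. LPS+MP against LPS gave -0.17 ± 0.08 (adjusted p = 0.120), or -0.26 without LPS replicate 2 (adjusted p = 0.00393). The change against control was 0.74 ± 0.08 in LPS (adjusted p = 1.31e-06), 0.57 ± 0.08 in LPS+MP (adjusted p = 1.77e-05) and -0.08 ± 0.08 in MP (95% interval -0.26 to 0.09, adjusted p = 0.466), none over 2-fold.

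These changes altered the balance among the transcripts of these beta 2 partners, whose protein was not measured here. A further beta 2 alpha chain gene, Itgad, is not part of the sums below. To set genes side by side, CPM was divided by the length of the 1 transcript listed for each gene (GENCODE M21). Genes are comparable on this scale only if that transcript is the one expressed, which was not checked. On that scale Itgal made 21.9% ± 2.41 of the sum of Itgam, Itgal and Itgax in LPS+MP, 12.7% ± 2.44 in LPS, 8.51% ± 0.424 in MP and 3.92% ± 0.116 in control (SD, n = 3 each). The 4 groups did not overlap in this share: LPS+MP spanned 19.2% to 23.8%, LPS 11.1% to 15.55%, MP 8.10% to 8.95% and control 3.80% to 4.03%. The ratio of Itgam to Itgal was 3.595 ± 0.535, 7.01 ± 1.39, 10.6 ± 0.585 and 24.4 ± 0.760 in the same order. The summed alpha chains came to 0.651 ± 0.0236 of Itgb2 in LPS+MP, 1.17 ± 0.189 in LPS, 0.798 ± 0.0331 in MP and 1.12 ± 0.0548 in control. Both groups with particles lay below both groups without them in every library. These ratios rest on the gene values tested above and were given no test of their own; 3 against 3 libraries cannot go below p = 0.10 in an exact permutation test.

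**Figure D2:**
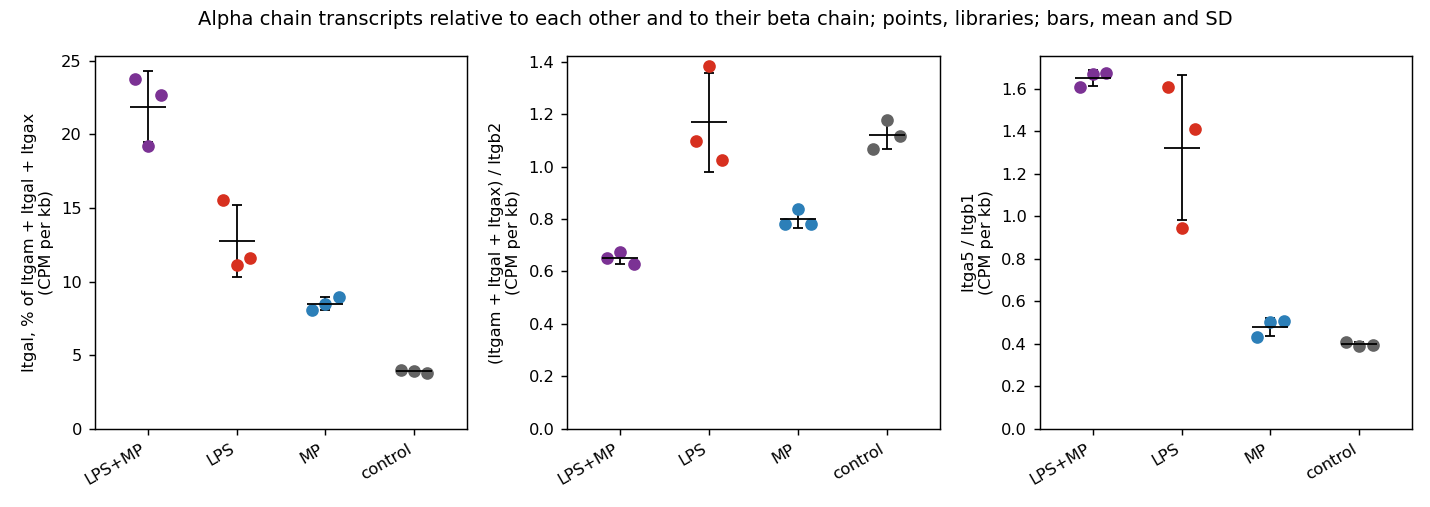
Share of Itgal in the sum of Itgam, Itgal and Itgax (left, %), that sum over Itgb2 (middle) and Itga5 over Itgb1 (right). All are from CPM per kb of transcript, in LPS+MP, LPS, MP and control. Points are libraries and bars the mean and SD (n = 3). The Itgal share is 21.9% in LPS+MP and 3.92% in control, and the middle ratio is at most 0.837 in each library with particles.

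Itga5 and Itgb1 form the classical fibronectin receptor; the alpha chain rose with LPS and the beta chain did not pass the threshold in any comparison. Itga5 (alpha 5) had 1156, 1138 and 1179.6 CPM in LPS+MP, 1267, 922 and 1052 CPM in LPS, 334, 336 and 359 CPM in MP, and 327, 336 and 363 CPM in control (chromosome 15, 103344289 to 103366763, minus strand). Both groups with LPS were far above both groups without it, and each pair overlapped within itself. Itga5 rose 3.13-fold in LPS against control (1.64 ± 0.09, adjusted p = 5.47e-10), 3.38-fold in LPS+MP against control (1.76 ± 0.09, adjusted p = 1.53e-10) and 3.37-fold in LPS+MP against MP (1.75 ± 0.09, adjusted p = 2.42e-10). Particles gave 0.00 ± 0.09 without LPS (95% interval -0.20 to 0.20, adjusted p = 0.992) and 0.11 ± 0.09 with it (95% interval -0.09 to 0.31, adjusted p = 0.378). The second value was 0.0041 without LPS replicate 2 (adjusted p = 0.969) and 0.23 without LPS replicate 1 (adjusted p = 0.0303).

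Itgb1, the beta chain shared by many alpha chains, had 626, 593 and 613 CPM in LPS+MP, 685, 848 and 648 CPM in LPS, 673, 579 and 617 CPM in MP, and 697, 753 and 804 CPM in control (chromosome 8, 128685654 to 128733200, plus strand). Control lay above LPS+MP and MP in every library and overlapped LPS. Differences were small: -0.30 ± 0.10 in LPS+MP (adjusted p = 0.0127), -0.27 ± 0.10 in MP (adjusted p = 0.0362) and -0.05 ± 0.10 in LPS (adjusted p = 0.643), each against control. Without LPS replicate 2, which held the highest LPS value, the last was -0.17 (adjusted p = 0.0442). The MP difference missed adjusted p of 0.05 in 7 of 15 alternatives, with values up to 0.147, and the LPS+MP difference in 2 of 15, with 0.107 under median-ratio scaling and 0.0618 without control replicate 3. Per kb of transcript Itga5 was 1.65 ± 0.0371 times Itgb1 in LPS+MP, 1.32 ± 0.341 times in LPS, 0.481 ± 0.0428 times in MP and 0.397 ± 0.0106 times in control. The LPS libraries had 1.61, 0.946 and 1.41, with the lowest in replicate 2.

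Itgav, the alpha V chain of vitronectin and osteopontin receptors, had 143, 118 and 128 CPM in LPS+MP, 125, 122 and 99.8 CPM in LPS, 63.4, 56.8 and 53.4 CPM in MP, and 50.6, 63.3 and 59.4 CPM in control (chromosome 2, 83724397 to 83806916, plus strand). Libraries with LPS and without it did not overlap. It rose in LPS+MP against control (1.16 ± 0.11, adjusted p = 1.41e-07) and against MP (1.15 ± 0.11, adjusted p = 2.35e-07). LPS against control gave 0.99 ± 0.11 (adjusted p = 1.16e-06), just under the 2-fold threshold, and passed it in 5 of 14 alternatives. The fibroblast marker Pdgfra moved with LPS too, at 6.90 to 7.97 CPM in LPS+MP, 7.67 to 10.8 in LPS, 1.99 to 2.35 in MP and 1.00 to 1.64 in control, and its part in the Itga5 and Itgav results was not tested. MP against control gave 0.00 ± 0.11 for Itgav (95% interval -0.23 to 0.24, adjusted p = 0.980).

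Itga4, the alpha 4 chain that with beta 1 or beta 7 binds VCAM-1, had 95.3, 105 and 101 CPM in LPS+MP, 133, 212 and 131 CPM in LPS, 157, 127 and 123 CPM in MP, and 127, 137 and 133 CPM in control (chromosome 2, 79255426 to 79333123, plus strand). The LPS+MP libraries were the lowest and overlapped no other group, and the value of 212 CPM belongs to LPS replicate 2. Itga4 was lower in LPS+MP than in LPS by -0.62 ± 0.14 (adjusted p = 0.00369), or by -0.39 without LPS replicate 2 (adjusted p = 0.000662). Against control it was lower by -0.40 ± 0.14 in LPS+MP (adjusted p = 0.0233), which missed 0.05 in 5 of 15 alternatives with values up to 0.0905, while LPS gave 0.22 ± 0.14 (adjusted p = 0.192). The LPS value was -0.0041 without LPS replicate 2 (adjusted p = 0.967).

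Itga2b and Itgb7 were scarce. Itga2b encodes alpha IIb, known as the platelet fibrinogen receptor chain with beta 3, and had 4.37, 5.36 and 3.92 CPM in LPS+MP, 3.14, 5.19 and 4.03 CPM in LPS, 3.27, 2.38 and 2.65 CPM in MP, and 1.60, 1.64 and 1.74 CPM in control (chromosome 11, 102453297 to 102470122, minus strand). All treated libraries exceeded all control libraries. It rose in LPS+MP against control by 1.05 ± 0.17 (adjusted p = 4.76e-05), which ended without LPS+MP replicate 2 (0.95), and stood at 0.92 ± 0.17 in LPS (adjusted p = 0.000193) and 0.49 ± 0.17 in MP (adjusted p = 0.0297). The LPS change passed the 2-fold threshold in 2 of 13 alternatives. The MP difference missed 0.05 in 6 of 14 alternatives, with values up to 0.119. Of 10 megakaryocyte and platelet markers 4 were in the table (Pf4, Ppbp, Vwf and Treml1), with a summed level of 385 to 464 CPM in LPS+MP, 524 to 649 in LPS, 313 to 341 in MP and 260 to 320 in control. Nearly all of it was the chemokine gene Pf4 (420 ± 40.9, 548 ± 61.6, 306 ± 13.3 and 271 ± 30.3 CPM). Ppbp was also highest in LPS (15.7 ± 4.27 CPM, against 1.69 ± 0.279 in control). Vwf was highest in control (17.4 ± 1.29 CPM, against 6.24 ± 3.11 in LPS), and so was Treml1 (7.06 ± 1.64 CPM, against 0.923 ± 0.454 in LPS+MP). The part of these 4 markers in the Itga2b result was not tested.

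Itgb7, which with alpha 4 binds the gut addressin MAdCAM-1, had 2.23, 2.31 and 2.39 CPM in LPS+MP, 2.80, 1.48 and 2.77 CPM in LPS, 0.990, 0.637 and 1.54 CPM in MP, and 0.720, 1.46 and 2.09 CPM in control (chromosome 15, 102215995 to 102231935, minus strand). LPS+MP lay above MP and control in every library, but control alone spanned from 0.720 to 2.09 CPM. LPS+MP exceeded MP by 0.71 ± 0.23 (adjusted p = 0.0166, under the 2-fold threshold), and leaving out MP replicate 2 gave 0.56 (adjusted p = 0.0834). Against control it stood at 0.49 ± 0.23 in LPS+MP (adjusted p = 0.0745), 0.48 ± 0.23 in LPS (adjusted p = 0.0824) and -0.22 ± 0.23 in MP (adjusted p = 0.479). Without LPS replicate 2 the adjusted p was 0.0270 in LPS+MP and 0.00827 in LPS, where the change was 0.68. In LPS+MP it was also under 0.05 in 4 other alternatives, with quantile normalization (0.0198), with median-ratio scaling (0.0453), with only the compared groups (0.0168) and without control replicate 3 (0.0256), and in LPS without control replicate 3 (0.0290).

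**Figure D3:**
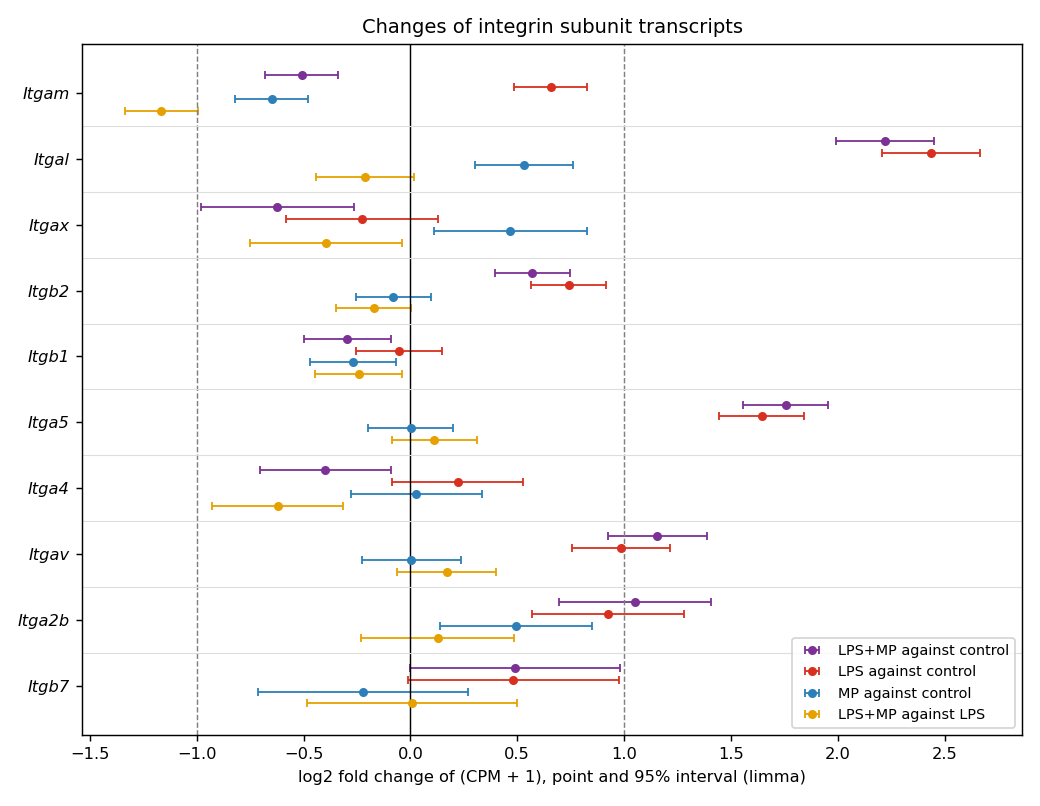
Change of each integrin subunit transcript as log2 fold change of CPM + 1 (horizontal axis) in LPS+MP, LPS and MP against control and in LPS+MP against LPS. Points are estimates and bars 95% intervals (limma); dashed lines mark a 2-fold change. Itgal, Itga5, Itgav and Itga2b lie past the right line in LPS+MP against control, and Itgam lies past the left line in LPS+MP against LPS.

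Without the size threshold more members differed, and so did many genes. At an adjusted p under 0.05, 5 of 10 members were higher and 4 lower in LPS+MP against control (all genes 27.7% and 38.6%, 66.3% in all), and 6 were higher and 0 lower in LPS against control (26.6% and 35.6%, 62.1% in all). In MP against control 3 were higher and 2 lower (20.6% and 18.3%), in LPS+MP against LPS 0 were higher and 2 lower (13.0% and 22.2%, 35.2% in all), and in LPS+MP against MP 6 were higher and 2 lower (19.0% and 36.6%, 55.6% in all). The MP count of 5 was lower with 1 control or MP library left out. It was 2 without control replicate 2 or MP replicate 3. It was 3 without control replicate 1, control replicate 3 or MP replicate 1, and 4 without MP replicate 2. Without control replicate 3 the count over all genes fell too, from 4570 to 3533. Of the members lost there, Itga2b had a larger change (0.51 against 0.49) and Itgb1 a smaller one (-0.22 against -0.27). Whether the count depends on particular libraries or on their number was not tested. The LPS+MP against LPS count was 4 without LPS replicate 1 and 5 without LPS replicate 2.

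Per kb of transcript the order of the 10 genes changed with LPS. In LPS+MP the order was Itga5 (264 ± 4.78 CPM per kb), Itgb2 (199 ± 6.36), Itgb1 (160.1 ± 4.27) and Itgam (101 ± 3.81), then Itgal (28.3 ± 2.95), Itgav (18.4 ± 1.84) and Itga4 (10.3 ± 0.478), with Itga2b, Itgb7 and Itgax at 1.32 or lower and no neighbours overlapping. In LPS Itga5 (247 ± 39.7), Itgam (226 ± 15.5), Itgb2 (225 ± 24.7) and Itgb1 (191 ± 27.9) led the order, each overlapping the next in its libraries. In MP it began with Itgb1 (163 ± 12.4), Itgb2 (127 ± 4.91), Itgam (91.4 ± 2.83) and Itga5 (78.2 ± 3.20), with no overlap among them. In control it began with Itgb1 (197 ± 14.0), then Itgam (144 ± 14.4) and Itgb2 (134 ± 9.56), which overlapped, and Itga5 (78.1 ± 4.29). In control Itgal, at 5.88 ± 0.441, stood below Itga4 (13.5 ± 0.499) and Itgav (8.19 ± 0.922) with no overlap, and in both groups with LPS it stood above both with no overlap.

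**Figure D4:**
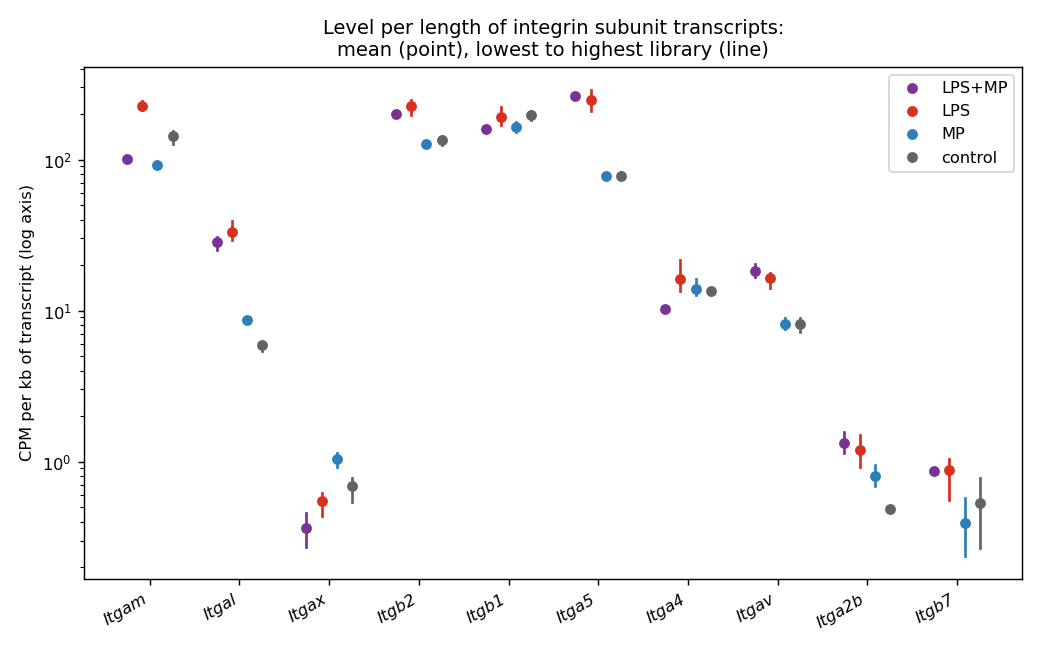
Level of each integrin subunit transcript in CPM per kb of transcript (logarithmic axis) in LPS+MP, LPS, MP and control. Points are group means and lines run from the lowest to the highest library (n = 3). Itga5 has the highest mean in both groups with LPS, though in LPS its libraries overlap those of Itgam. Itgb1 has the highest mean in MP and control. Itgax, Itga2b and Itgb7 stay below 2 CPM per kb in all groups.

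Stretches of 250 bases upstream of the RefSeq start (GRCm38.p6) are shown. They are those of the members that passed the 2-fold threshold in at least 1 comparison and have an entry. Itga5, Itgav and Itga2b rose in LPS+MP against control. Itgam fell in LPS+MP against LPS, and Itgax fell in LPS+MP against MP. Each stretch is written 5′ to 3′ on the strand of its gene. Capitals mark matches on either strand. The PU.1 motif searched was GAGGAAG, and PU.1 is a transcription factor of myeloid cells. For AP-1, a factor made of Fos and Jun proteins, the letters were TGANTCA. For Sp1, a factor of many promoters without a TATA box, they were GGGCGG. The TATA box itself was searched as TATAAA, and the interferon-stimulated response element and the NF-kB consensus are given by name.
Itga5 (chr15:103366792-103367041, minus strand): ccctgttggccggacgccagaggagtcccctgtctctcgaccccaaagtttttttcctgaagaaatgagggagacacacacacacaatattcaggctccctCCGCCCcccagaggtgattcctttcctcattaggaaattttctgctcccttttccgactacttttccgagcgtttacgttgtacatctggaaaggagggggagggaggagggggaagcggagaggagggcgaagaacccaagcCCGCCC
Itgav (chr2:83724147-83724396, plus strand): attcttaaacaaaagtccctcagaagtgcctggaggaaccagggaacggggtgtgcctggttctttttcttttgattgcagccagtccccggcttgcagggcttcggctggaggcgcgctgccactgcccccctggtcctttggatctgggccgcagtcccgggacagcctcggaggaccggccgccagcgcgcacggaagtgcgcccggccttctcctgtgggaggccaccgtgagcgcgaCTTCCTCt
Itga2b (chr11:102469884-102470133, minus strand): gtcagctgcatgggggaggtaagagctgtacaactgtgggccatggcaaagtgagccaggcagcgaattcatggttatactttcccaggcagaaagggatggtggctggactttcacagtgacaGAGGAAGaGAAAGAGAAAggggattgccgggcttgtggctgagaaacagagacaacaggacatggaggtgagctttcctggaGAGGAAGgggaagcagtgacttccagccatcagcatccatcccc
Itgam (chr7:128062390-128062639, plus strand): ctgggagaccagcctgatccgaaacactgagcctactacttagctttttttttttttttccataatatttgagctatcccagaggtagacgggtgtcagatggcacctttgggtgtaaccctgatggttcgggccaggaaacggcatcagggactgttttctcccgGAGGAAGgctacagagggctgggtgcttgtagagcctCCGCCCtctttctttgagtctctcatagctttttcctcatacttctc
Itgax (chr7:128129300-128129549, plus strand): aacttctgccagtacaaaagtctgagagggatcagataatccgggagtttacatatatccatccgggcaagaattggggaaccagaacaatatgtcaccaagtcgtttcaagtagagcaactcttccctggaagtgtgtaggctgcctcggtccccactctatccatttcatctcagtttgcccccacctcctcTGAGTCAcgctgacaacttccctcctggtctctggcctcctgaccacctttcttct

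Promoter entries were found for 8 of the 10 members; Itgal and Itgb2 were the members without one. Itga2b had 2 matches to the PU.1 motif, Itgam and Itgav had 1 each, and 10.6% of 32851 promoters of the same length had at least 1. The interferon element was found in Itga2b (2.98% of promoters) and the AP-1 motif in Itgax (6.75%). The Sp1 motif was found 2 times in Itga5 and 1 time each in Itgam, Itga4 and Itgb1 (32.7% of promoters). None of the 8 windows held the NF-kB consensus (3.9% of promoters) or the TATA box (12.4%), which says only that those letters are not in these windows. In Itga2b the PU.1 matches begin 126 and 44 bases before the RefSeq start. The interferon element begins 118 bases before it, and no 2 of these matches overlap. In the coordinates given with the Itga2b values this minus-strand gene begins at 102470122. By that start, most of its window and these matches lie inside the gene and not upstream of it. GC content ran from 49.6% in Itgam to 68.0% in Itgb1, where the median of all promoters was 52.4%.

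Of 16 further integrin subunit genes looked for, 6 were in the table and tested. Itga8 fell in LPS+MP (-2.45 ± 0.20, adjusted p = 2.41e-08) and in LPS (-2.13 ± 0.20, adjusted p = 1.66e-07) against control, with 0.378 ± 0.168 CPM in LPS+MP, 0.756 ± 0.519 in LPS, 3.57 ± 0.496 in MP and 6.50 ± 0.625 in control. Itgb5, a beta chain that pairs with alpha V, fell in LPS+MP against MP (-1.15 ± 0.10, adjusted p = 8.41e-08), with 54.3 ± 2.97 CPM in LPS+MP, 60.4 ± 9.42 in LPS, 121 ± 6.41 in MP and 82.3 ± 5.83 in control. Itgb5 was 0.55 ± 0.10 higher in MP than in control (adjusted p = 0.000447). Itga9 was 0.43 ± 0.08 higher in LPS than in control (adjusted p = 0.000155) and 0.44 lower in LPS+MP than in LPS (-0.44 ± 0.08, adjusted p = 0.000434), the second in the same direction as Itgam and Itga4. Itga6 was lower in LPS+MP than in control (-0.97 ± 0.14, adjusted p = 1.7e-05), Itga10 was higher in LPS (0.79 ± 0.19, adjusted p = 0.00213) and Itga7, near 1 CPM, was higher in LPS+MP (0.87 ± 0.18, adjusted p = 0.000657), none over 2-fold.

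Of 39 listed ligands and counter-receptors 18 were tested; 4 rose and 3 fell in LPS+MP against control (all genes 8.52% and 12.3%), 5 rose and 2 fell in LPS (8.30% and 8.05%), and 2 rose and 1 fell in MP (1.82% and 1.85%). Icam1, the counter-receptor of LFA-1 and Mac-1, rose 3.17-fold in LPS (150.4 ± 31.8 CPM, against 46.1 ± 2.43 in control, adjusted p = 2.8e-08) and 2.28-fold in LPS+MP (107 ± 13.6 CPM, adjusted p = 1e-06). Fn1, fibronectin, rose 2.09-fold in LPS+MP, at 231 ± 20.6 CPM against 110.2 ± 11.8 CPM in control (adjusted p = 8.11e-08). Its level in LPS alone was 211 ± 16.4 CPM. Thbs1, the matrix protein thrombospondin 1, had 18.2 ± 2.42 CPM in LPS+MP, 122 ± 11.999 in LPS, 0.843 ± 0.677 in MP and 0.589 ± 0.228 in control, and fell in LPS+MP against LPS by -2.69 ± 0.21 (adjusted p = 1.1e-07). Edil3, a secreted RGD protein bound by alpha V integrins, had 14.1 ± 1.46, 28.4 ± 7.44, 21.5 ± 2.04 and 13.2 ± 0.364 CPM in the same order, with an interaction of -1.60 ± 0.21 (adjusted p = 6.08e-05).

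Of 26 listed genes that act on the tails from inside, 22 were tested, and 1 rose and 4 fell in LPS+MP against control (all genes 8.52% and 12.3%), 2 rose and 2 fell in LPS (8.30% and 8.05%), and 0 rose and 2 fell in MP (1.82% and 1.85%). Rassf5, whose product RAPL links Rap1 to LFA-1, fell to 0.339 times the control level in LPS+MP, with 28.6 ± 2.56 CPM, against 86.1 ± 2.26 CPM in control (-1.56 ± 0.08, adjusted p = 1.52e-10). Rasgrp3, a Ras and Rap exchange factor, fell in LPS+MP to 0.177 ± 0.107 CPM, against 8.20 ± 0.0995 CPM in control (adjusted p = 1.82e-10). Cytip, an inhibitory partner of cytohesin 1, had 1.78 ± 0.342 CPM in LPS+MP, 5.63 ± 3.09 in LPS, 6.45 ± 0.527 in MP and 49.2 ± 2.36 in control.

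Among 40 tested genes of signalling and adhesion sites, of 43 listed, 3 rose and 6 fell in LPS+MP against control (all genes 8.52% and 12.3%) and 4 rose and 5 fell in LPS (8.30% and 8.05%). Syk, a kinase that acts below integrins and Fc receptors, was among those that rose, with 366 ± 16.0 CPM in LPS+MP, 381 ± 42.6 in LPS, 83.1 ± 3.92 in MP and 80.2 ± 1.64 in control. The parvin gene Parvg, which belongs to the complex that joins integrin-linked kinase to actin, fell to 91.2 ± 1.46 CPM in LPS+MP (-1.45 ± 0.06, adjusted p = 4.54e-12) and 118 ± 1.88 in LPS (-1.08 ± 0.06, adjusted p = 2.51e-10), against 250.5 ± 5.14 CPM in control. Evl, an actin-elongating Ena/VASP protein, fell in LPS+MP against LPS (-1.23 ± 0.10, adjusted p = 3.16e-07), as Itgam did, with 18.2 ± 1.94 CPM in LPS+MP and 44.0 ± 5.54 in LPS. Of 15 tested lateral partners, of 16 listed, 4 rose and 0 fell in LPS+MP against control (all genes 8.52% and 12.3%). These were Cd47 (1.11 ± 0.06, adjusted p = 3.31e-10), the tetraspanin gene Cd53 (1.02 ± 0.08, adjusted p = 2.09e-08), Cd14 (1.49 ± 0.14, adjusted p = 1.33e-07) and Plaur (1.33 ± 0.13, adjusted p = 1.63e-07), the urokinase receptor that associates with Mac-1.

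Nearest profiles were sought as the smallest root mean square difference of centred log2(CPM + 1) over the 12 libraries. For Itgal they were those of the cytokine receptor genes Il4ra (0.127) and Csf2rb (0.152), where Itgal itself ranged over 2.82. For Itga5 they were Tapbp (0.093), a gene of class I antigen loading, and St3gal1 (0.101), over a range of 1.95. Itgam was closest to Igf2r (0.180) and Efcab5 (0.197) over 1.46, and Itgb2 to Pbxip1 (0.072) and Sbno2 (0.096) over 1.01. For Itgav they were Hsph1 (0.104) and Map4k3 (0.116) over 1.48, and for Itga4 Pign and Atm (0.104 each) over 1.14. Itgb1, with a range of 0.55, was closest to Stt3b (0.069) and Plekha2 (0.076). Itgax was closest to Rpp40 (0.159) and Alyref2 (0.168) over 1.42, Itga2b to Braf (0.105) and Fndc3a (0.125) over 1.29, and Itgb7 to Syvn1 (0.189) and Plbd2 (0.190) over 1.22.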

How the data were processed

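Polyadenylated RNA of 12 J774A.1 libraries was sequenced from directional libraries, per the labels' protocols; groups and replicate numbers come from the sample titles. The submitters' processing notes name TopHat2 2.1.1, HTSeq, Trimmomatic 0.36, FastQC 11.5, edgeR and DESeq2 without saying what each did. The deposited columns are headed RPKM but were read as CPM, on the values alone: their totals lie between 998867 and 999273, and the deposited logCPM column, read as log2 over all libraries, differed from the log2 mean of the columns with an SD of 0.20, or 0.99 when multiplied by length in kb. Low values were whole multiples of 1 step in MP replicate 1 and LPS replicate 3 only (tolerance 0.05 of a step; share 0.148 to 0.876 in the other libraries), so no count model was fitted. The build is not given in the sources used here; of 11671 gene IDs in GENCODE M21 (GRCm38), 9786 had a start or end within 1 base of the table's, the 10 members among them.

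log2(CPM + 1) of the 11745 genes that reached 1 CPM in at least 3 libraries was fitted with limma 3.58.1 (R 4.3.3) with a variance trend; the design written for it was kept. The procedure was tested on simulated data. The members and gene lists were chosen with earlier results of these data known, and the thresholds are those of the series description. Named genes are the members, other integrin genes, from each list at most 4 called genes, taken by adjusted p, and the 2 nearest profiles of each member; not all are described. Alternatives were a pseudocount of 0.1, no filter or 5 CPM, a fit of the compared groups alone, a fit without the variance trend, quantile normalization, median-ratio scaling, blocking on replicate number, and leaving out each library. Promoters are those of RefSeq. The kit is directional, but the strand setting of the counting is not given, so reads of overlapping and antisense genes cannot be told apart. Results for some genes are not reported here.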

Additional observations from a re-analysis of the deposited data

Results flagged for a closer look

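In 4 of 10 members the effect of particles differed with and without LPS by the interaction test (limma, adjusted p over 11745 genes). Of all genes 22.0% had an interaction at adjusted p under 0.05, 15.5% lower and 6.45% higher. The interaction was negative in all 4 members. For Itgax it was -0.86 ± 0.24 (adjusted p = 0.0169; from 0.00272 to 0.0690 over its alternatives): particles gave -0.40 with LPS and 0.47 without it. For Itgal it was -0.74 ± 0.15 (adjusted p = 0.00271), from -0.21 with LPS and 0.53 without it. For Itga4 it was -0.65 ± 0.20 (adjusted p = 0.0328), from -0.62 with LPS and 0.03 without it. Without LPS replicate 2 it was -0.42 (adjusted p = 0.00602). Over its 19 alternatives the adjusted p ran from 0.00602 to 0.0930 and was under 0.05 in 10. For Itgam it was -0.52 ± 0.11 (adjusted p = 0.00434), from -1.16 with LPS and -0.65 without it, lower in both.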

How the results depend on the processing

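Calls over 2-fold of Itgam in LPS+MP against LPS, of Itgal and Itga5 in the LPS comparisons and of Itgav in LPS+MP against control and against MP held in all alternatives run. With a pseudocount of 0.1, 807 genes were called in LPS+MP against LPS in place of 531, and 1 member passed 2-fold in the interaction in place of 0 (Itgax). The number of members at adjusted p under 0.05 was 3 in place of 5 in MP against control with the 5 CPM filter and with quantile normalization, and 2 to 5 with 1 library left out; 4 in place of 2 in LPS+MP against LPS with quantile normalization, and 2 to 5 with 1 left out; and 5 in place of 8 in LPS+MP against MP with the 5 CPM filter, which removes scarce members. With only the compared groups fitted, 2623 genes in place of 4138 had adjusted p under 0.05 in LPS+MP against LPS. Same-numbered libraries did not deviate together (18 pairs, median residual correlation 0.018, 4 over 0.1; the closest library bore the same number for 3 of 12). With the replicate block the numbers called over 2-fold were unchanged in all comparisons, while members at adjusted p under 0.05 numbered 4 in MP against control and 3 in LPS+MP against LPS.

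The largest change to turn sign was that of Itga4 in LPS against control, from 0.22 to -0.0041 without LPS replicate 2. With median-ratio scaling the signs of Itga4 (-0.010), Itga5 (-0.037) and Itgav (-0.033) turned in MP against control. That of Itgb1 turned in LPS against control (0.037) and LPS+MP against MP (0.12), and with quantile normalization in the interaction (-0.033). With 1 library left out the ranges were -0.080 to 0.0935 for Itga4, -0.032 to 0.0456 for Itga5 and -0.086 to 0.0729 for Itgav in MP against control; -0.0041 to 0.34 for Itga4 and -0.17 to 0.024 for Itgb1 in LPS against control; -0.016 to 0.27 for Itga2b and -0.20 to 0.11 for Itgb7 in LPS+MP against LPS; -0.0783 to 0.030 for Itgb1 in LPS+MP against MP; and -0.051 to 0.14 for Itgb1 in the interaction. Median-ratio scaling moved the median of all genes in LPS+MP against MP to -0.01, from -0.14. Depth is unknown in all libraries but MP replicate 1 and LPS replicate 3, which limits the members near 1 CPM (Itgax, Itga2b, Itgb7), whose log2(CPM + 1) changes are compressed.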
